A study of Mus musculus with 6 samples.

Results

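The MYC, MAX and MXD network was followed by 9 genes, Myc, Max, Mxd1, Mxd3, Mxd4, Mxi1, Mnt, Mga and Mlx, in mouse macrophages treated with LPS. The 9 genes were chosen by name, as rows of the count table whose Ensembl identifier carries one of these symbols in GENCODE M21. They are 9 of the 55335 genes in the table, and all 9 passed the filter on low counts that left 15687 genes for testing. The cells were BMDMs, macrophages grown for 6 d from the bone marrow of young adult male C57BL/6 mice in medium conditioned by L929 fibroblasts. Total RNA was sequenced in 3 libraries of control cells given PBS and 3 libraries of cells given LPS, a cell wall component of Gram-negative bacteria, all collected at 1 h. The library names mark the cells as wild type (WT), and the labels name no genetic change in these mice. The dose of LPS in this experiment is not given in the sources used here. The labels do not state whether replicates came from separate mice, so p-values measure the spread between these libraries, which may be technical.

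MYC is a transcription factor of the basic helix-loop-helix leucine zipper class that binds DNA only as a pair with MAX, mainly at the E-box CACGTG, where it recruits coactivators. The MXD proteins (MXD1, MXI1, MXD3 and MXD4), MNT and MGA also pair with MAX and bind the same letters, and the MXD proteins and MNT bring in the SIN3 corepressor. MLX is a MAX-like partner that pairs with the glucose-sensing Mondo factors and with some MXD proteins. In myeloid cells Myc is known as a gene of growth and Mxd1 as a gene of terminal differentiation.

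After 1 h of LPS, 3 of the 9 genes rose, 1 fell, and the other 5 stayed within the fold threshold. Myc and its antagonist Mxd1 rose by nearly the same factor, 11.98-fold and 11.73-fold, and a further antagonist, Mxi1, rose 5.73-fold. Mxd3, which was scarce in control cells, fell to 0.301 of its control level. Max, the shared partner, and Mxd4, the most abundant MXD transcript of control cells, were moderately lower, at 0.772 and 0.729 of control. A rise or a fall here means an adjusted p under 0.05 from edgeR's quasi-likelihood test, adjusted by Benjamini-Hochberg across the 15687 tested genes, together with a log2 fold change above 1 or below -1. Over all tested genes, 10.5% rose and 10.4% fell by these criteria. At an adjusted p under 0.05 alone, 7 of the 9 genes differed, 3 of them higher and 4 lower, against a background of 67.7% of tested genes, with 32.9% higher and 34.9% lower. The median log2 fold change of the 9 genes was -0.07, and that of all tested genes was -0.01.

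To show which letters of the network's own binding site lie at its own promoters, windows from 250 bases before to 50 bases after the start of transcription were taken from RefSeq (GRCm38.p6, the same primary chromosomes as GRCm38). Windows were at hand for 8 of the 9 genes, all but Myc, and Mxi1 had 3 of them. The E-box CACGTG, which reads the same on both strands, occurred in 4 of these 8 genes, Max, Mxd4, Mnt and Mlx, and in 11.6% of the 10158 tested genes that have a window. None of the 4 carriers rose, and no window of Mxd1, Mxi1, Mxd3 or Mga held it. The promoter of Myc, which rose, was not searched. The 30 bases around each match are printed 5′ to 3′ on the strand of the gene, with the E-box in capitals.
Max, chr12:76962234-76962263, minus strand: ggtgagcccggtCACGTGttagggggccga
Mxd4, chr5:34187912-34187941, minus strand: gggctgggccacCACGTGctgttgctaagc
Mnt, chr11:74830789-74830818, plus strand: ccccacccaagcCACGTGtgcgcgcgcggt
Mlx, chr11:101087238-101087267, plus strand: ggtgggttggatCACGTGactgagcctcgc
The first base of the E-box lay at -3 in Max, -219 in Mxd4, -123 in Mnt and -40 in Mlx, counted from the RefSeq start. Among tested genes with a window, the E-box was found in 11.2% of those that rose, 8.01% of those that fell and 12.04% of the rest. Matches are a description of letters and no measurement of binding.

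The promoters of the risen Mxd1 and Mxi1 are shown next, since they are the MXD genes that rose. CCAAT boxes (CCAAT) and GC boxes (GGGCGG), both searched on either strand, are in capitals.
Mxd1, chr6:86669162-86669409, minus strand: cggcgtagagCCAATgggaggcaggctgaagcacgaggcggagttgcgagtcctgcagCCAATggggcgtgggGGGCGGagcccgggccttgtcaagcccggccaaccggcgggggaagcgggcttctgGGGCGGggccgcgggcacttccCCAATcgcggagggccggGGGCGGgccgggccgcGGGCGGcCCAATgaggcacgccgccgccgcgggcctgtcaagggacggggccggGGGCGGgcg
Mxi1, chr19:53310256-53310505, plus strand: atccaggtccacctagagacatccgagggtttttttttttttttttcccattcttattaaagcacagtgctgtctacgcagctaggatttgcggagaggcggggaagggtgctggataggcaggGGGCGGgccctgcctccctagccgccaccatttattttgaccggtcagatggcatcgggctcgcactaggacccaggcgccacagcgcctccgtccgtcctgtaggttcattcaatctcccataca
The window of Mxd1 held 4 CCAAT boxes and 6 GC boxes, and the last GC box runs beyond the printed stretch. The Mxi1 window shown, the most upstream of its 3, held 1 GC box and no CCAAT box. The other windows of Mxi1 held 4 GC boxes each and no CCAAT box. Which start these cells use was not tested. GC boxes occurred in 6 of the 8 genes against 66.9% of tested genes, and CCAAT boxes in 3 of the 8 against 42.9%. The kappa-B motif (GGGA, any base, then TTTCC) was in 0 of the 8 genes and in 0.532% of tested genes, and the cAMP response element TGACGTCA was in 0 of the 8 and in 3.55% of tested genes. An absent match says only that these letters are not in these windows.

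Myc (ENSMUSG00000022346.15, chr15:61985391-61990374, plus strand), the activating member, had 219, 191 and 219 counts in PBS replicates 1, 2 and 3 and 1786, 1836 and 1816 in LPS replicates 1, 2 and 3. Each LPS library lay far above each control library. In normalized CPM, the counts relative to a library total scaled by edgeR's TMM factor, the level was 4.52 ± 0.267 (SD, n = 3) in control and 54.3 ± 1.71 (SD, n = 3) in LPS cells. On the log2 scale the fold change was 3.58 (SE 0.06, 95% confidence interval 3.46 to 3.71, edgeR adjusted p = 2.21e-19). This was rank 362 of 15687 tested genes by log2 fold change, so that 2.30% of tested genes had a higher value. Pvt1, the long noncoding RNA gene downstream of Myc, had 111, 120 and 97 counts with PBS and 84, 78 and 95 with LPS. Its log2 fold change was 0.12 (SE 0.14, edgeR adjusted p = 0.460), and under scaling by library size alone or by the upper quartile it was -0.29 or -0.02, so no direction is given for Pvt1.

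Max (ENSMUSG00000059436.13, chr12:76937269-76962201, minus strand), the partner that MYC, the MXD proteins, MNT and MGA share, had 2099, 1931 and 2050 counts with PBS and 1099, 1105 and 1181 with LPS. The groups did not overlap. Max stood at 43.8 ± 0.892 normalized CPM in control and 33.8 ± 0.979 in LPS cells (SD, n = 3). This gave a log2 fold change of -0.37 (SE 0.04, 95% confidence interval -0.46 to -0.28, edgeR adjusted p = 4.71e-07), past the p threshold and within the fold threshold. A short gene of unclear status in an intron of Max on the same strand, Gm47218, had 110, 109 and 140 counts with PBS and 37, 33 and 32 with LPS, with a log2 fold change of -1.34 (SE 0.17, edgeR adjusted p = 1.71e-06).

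Mxd1 (ENSMUSG00000001156.9, chr6:86647042-86669161, minus strand), an antagonist that competes with MYC for MAX, had 1015, 991 and 966 counts with PBS and 8359, 8529 and 8267 with LPS. All 3 LPS libraries were above all 3 controls, and both groups were tight. The level went from 21.4 ± 0.504 to 251 ± 9.37 normalized CPM (SD, n = 3). LPS over control gave a log2 fold change of 3.55 (SE 0.04, 95% confidence interval 3.47 to 3.64, edgeR adjusted p = 9.95e-22), at rank 367, and its interval lay inside that of Myc. Gm44292, a gene of unclear status in an intron of Mxd1 on the same strand, had 64, 55 and 68 counts with PBS and 187, 203 and 193 with LPS, with a log2 fold change of 2.11 (SE 0.12, edgeR adjusted p = 4.02e-11).

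Mxi1 (ENSMUSG00000025025.14, chr19:53310518-53375810, plus strand), the MXD member also called MAD2 and known as a tumour suppressor candidate, had 944, 887 and 860 counts with PBS and 3885, 3564 and 3672 with LPS. The groups were fully apart. Its level was 19.4 ± 0.637 normalized CPM in control and 111 ± 4.22 in LPS cells (SD, n = 3). The log2 fold change was 2.52 (SE 0.04, 95% confidence interval 2.43 to 2.61, edgeR adjusted p = 4.25e-19), at rank 656, with an interval below those of Myc and Mxd1. On the opposite strand within an intron of Mxi1, AC133451.2 had 1, 1 and 0 counts with PBS and 19, 39 and 31 with LPS, at least 13.7-fold higher against a floor of 3 counts per control library. Gm10197, which shares 194 bases with Mxi1 exons on the opposite strand, had 0 counts in each control library and 1, 1 and 3 in LPS libraries.

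Mxd3 (ENSMUSG00000021485.14, chr13:55325168-55329823, minus strand), the MXD member linked to the S phase of dividing cells, was scarce, with 38, 51 and 36 counts with PBS and 9, 8 and 10 with LPS. The groups did not overlap, and the 3 control libraries were more scattered than for any other member, with a coefficient of variation of 21.8%. The level was 0.902 ± 0.196 normalized CPM in control and 0.269 ± 0.0244 in LPS cells (SD, n = 3). On the log2 scale the fold change was -1.73 (SE 0.29, 95% confidence interval -2.35 to -1.11, edgeR adjusted p = 4.82e-05). Mxd3 shares 105 bases, 4.43% of its exon length, with Prelid1 on the opposite strand, whose 113 normalized CPM in control exceeded those of Mxd3 and whose log2 fold change was 0.01 (SE 0.04, edgeR adjusted p = 0.767), with a sign that turned under several settings. With a filter of 10 counts in every library Mxd3 was not tested, and then no member fell.

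Mxd4 (ENSMUSG00000037235.13, chr5:34173883-34187720, minus strand), an MXD member found in differentiated and resting cells, had 4631, 4512 and 4355 counts with PBS and 2353, 2385 and 2363 with LPS. Control and LPS libraries did not overlap. In normalized CPM the level was 97.2 ± 2.74 in control and 70.9 ± 1.94 in LPS cells (SD, n = 3). This gave a log2 fold change of -0.46 (SE 0.04, 95% confidence interval -0.53 to -0.38, edgeR adjusted p = 4.27e-09), within the fold threshold. The 4 MXD genes thus had 2 rises, 1 fall and 1 lower value short of the fold threshold. Gm42846, an antisense gene that shares 514 bases or 6.06% of the exon length of Mxd4, had 1, 2 and 2 counts with PBS and 2, 4 and 2 with LPS.

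**Figure D1:**
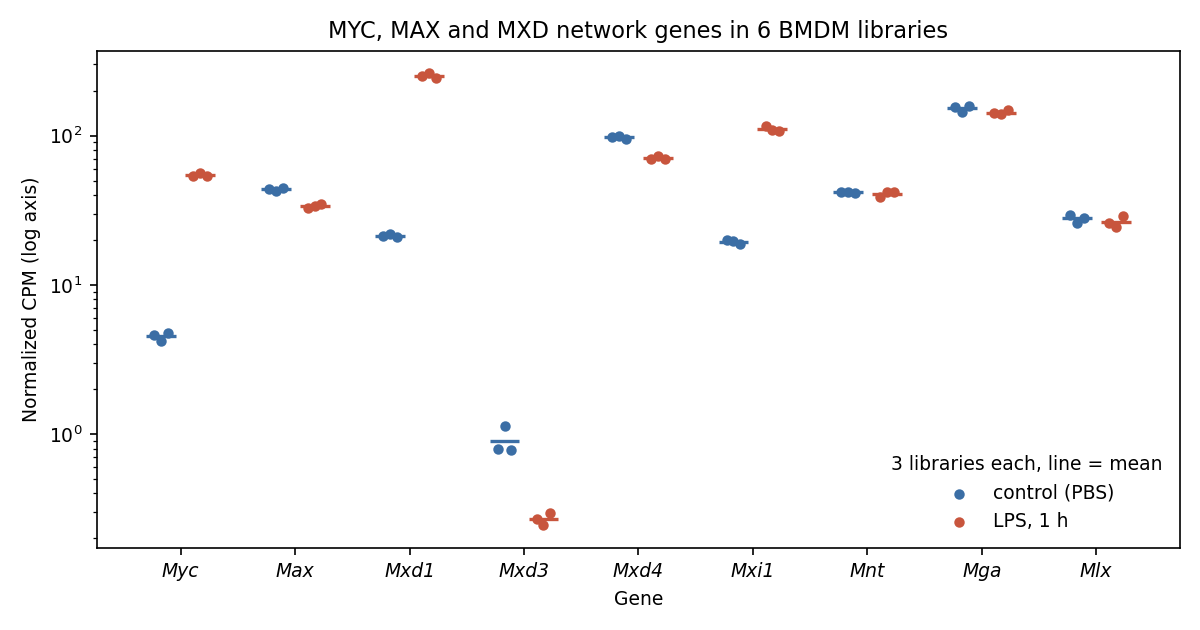
Normalized CPM on a log axis for the 9 genes, with 1 point per library, 3 control (PBS) and 3 LPS libraries per gene, and a line at each group mean. Myc, Mxd1 and Mxi1 sit higher in all 3 LPS libraries, Mxd3, Max and Mxd4 sit lower in all 3, and the groups of Mnt, Mga and Mlx overlap.

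Mnt (ENSMUSG00000000282.12, chr11:74830920-74845725, plus strand), the antagonist expressed in most cell types, had 1998, 1894 and 1910 counts with PBS and 1294, 1373 and 1431 with LPS. After scaling, the level was 41.8 ± 0.316 normalized CPM in control and 40.9 ± 2.02 in LPS cells (SD, n = 3), and the groups overlapped. LPS over control gave a log2 fold change of -0.03 (SE 0.04, 95% confidence interval -0.12 to 0.06, edgeR adjusted p = 0.560).

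Mga (ENSMUSG00000033943.15, chr2:119897228-119969581, plus strand), a large protein that pairs with MAX and anchors the polycomb complex PRC1.6, had 7356, 6519 and 7299 counts with PBS and 4729, 4556 and 5021 with LPS. Normalized levels were 154, 144 and 158 CPM in control and 141, 140 and 148 CPM in LPS libraries, so the groups overlapped. The log2 fold change was -0.09 (SE 0.04, 95% confidence interval -0.18 to -0.01, edgeR adjusted p = 0.0373). That p did not pass the threshold with DESeq2's size factors (0.0924), in DESeq2's test (0.120), or without control replicate 1 (0.0872), control replicate 3 (0.166), LPS replicate 1 (0.119) or LPS replicate 2 (0.112).

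Mlx (ENSMUSG00000017801.15, chr11:101087277-101092207, plus strand), the MAX-like partner of the Mondo factors, had 1406, 1177 and 1290 counts with PBS and 870, 797 and 986 with LPS. Its normalized levels overlapped between groups, at 27.8 CPM in control and 26.4 in LPS cells on average. On the log2 scale the fold change was -0.07 (SE 0.06, 95% confidence interval -0.21 to 0.06, edgeR adjusted p = 0.303). Without LPS replicate 3 it was -0.15, with an adjusted p of 0.0435. Psmc3ip, on the opposite strand, shares 385 bases or 19.3% of the exon length of Mlx. Psmc3ip had 79, 58 and 62 counts with PBS and 24, 36 and 26 with LPS, so even the whole of Psmc3ip was small beside Mlx, and its log2 fold change was -0.73 (SE 0.21, edgeR adjusted p = 0.00495). In all, normalized levels of 6 of the 9 genes did not overlap between groups, against 70.5% of all tested genes.

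The scaling between libraries bears on the small differences. TMM factors averaged 1.15 for PBS and 0.869 for LPS libraries, and scaling by library size alone shifted the median log2 fold change of all tested genes by -0.40, upper quartile scaling by -0.14. With library size alone, 1213 genes rose and 2964 fell, against 1653 and 1624 with TMM, so rises made up 29.0% and 50.4% of the calls. Under that scaling Myc, Mxd1 and Mxi1 still rose, by 3.18, 3.15 and 2.11 on the log2 scale, and Mnt and Mlx moved to -0.44 and -0.48, close to the shift of all genes. Max and Mxd4, at -0.78 and -0.86, remained below that shift.

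**Figure D2:**
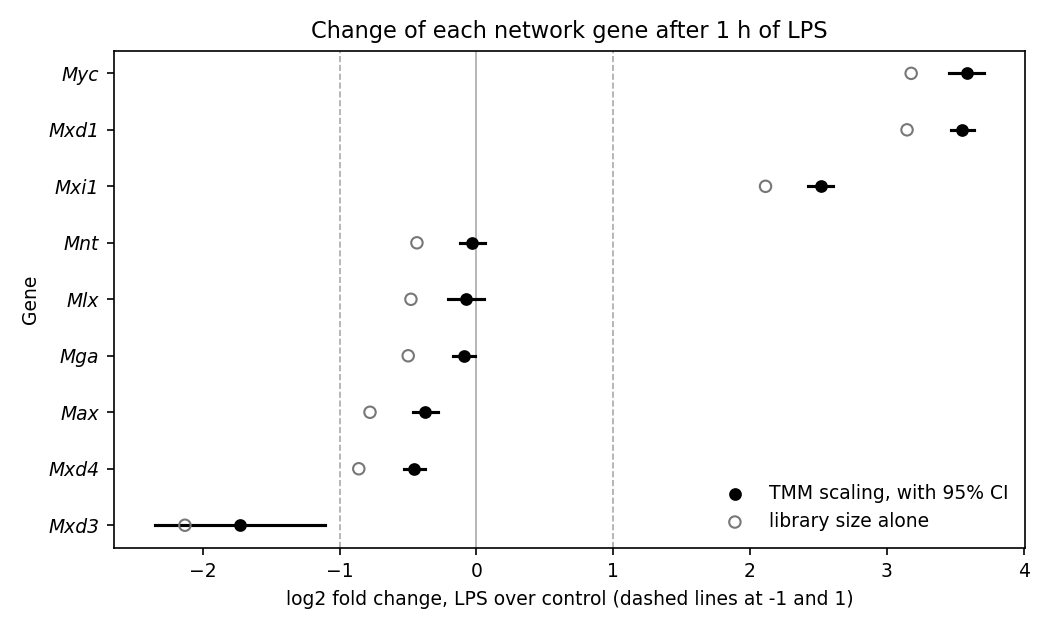
Log2 fold change of LPS over control for the 9 genes, with filled points and 95% confidence intervals for TMM scaling, open points for library size alone, and dashed lines at the fold thresholds of -1 and 1. Myc (3.58), Mxd1 (3.55) and Mxi1 (2.52) lie beyond 1 and Mxd3 (-1.73) beyond -1 under both scalings.

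Levels of the 9 genes relative to each other were compared per kilobase of exon, over the union of all exons annotated for a gene. This union was 2717 bases for Myc, 7072 for Mxd1, 6823 for Mxi1 and 8483 for Mxd4. Which transcripts these cells use was not tested, so orders and ratios between genes rest on these lengths. In control cells the order was Mlx, Max, Mxd4, Mga, Mnt, Mxd1, Mxi1, Myc and Mxd3. Mean levels there were 13.9 normalized CPM per kb for Mlx, 12.2 for Max, 11.5 for Mxd4, 3.03 for Mxd1, 2.84 for Mxi1, 1.67 for Myc and 0.381 for Mxd3. No neighbours in that order overlapped over the 3 control libraries. Myc was therefore next to last among the 9 genes before treatment.

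In LPS cells the order was Mxd1, Myc, Mxi1, Mlx, Max, Mga, Mnt, Mxd4 and Mxd3, and the ranges of Max and Mga and those of Mnt and Mxd4 overlapped. The first 3 had mean levels of 35.5, 20.0 and 16.3 normalized CPM per kb, and the last, Mxd3, had 0.114. The 3 genes that rose thus took the first 3 places. Myc transcripts per kb of exon were 0.138, 0.131 and 0.141 of those of Max in control libraries and 2.15, 2.20 and 2.04 times those of Max in LPS libraries. These ratios compare RNA levels only and say nothing of the amounts of protein.

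Set against its antagonists, Myc amounted to 0.0632, 0.0570 and 0.0669 of the summed level per kb of the 4 MXD genes and Mnt in control libraries and to 0.284, 0.293 and 0.291 in LPS libraries. The LPS libraries were all higher, and in every library the antagonists together exceeded Myc. Mxd1 alone was 1.78, 1.99 and 1.69 times Myc per kb in control and 1.80, 1.78 and 1.75 times in LPS libraries, so this ratio overlapped between groups. Mxi1 went from 1.72, 1.85 and 1.56 times Myc to 0.866, 0.773 and 0.805 times Myc.

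The makeup of the MXD family differed between the groups. Mxd4 accounted for 64.7%, 64.6% and 64.9% of the summed MXD level per kb in control libraries and for 13.6%, 14.0% and 14.0% in LPS libraries. Mxd1 accounted for 17.0%, 17.0% and 17.3% in control and 58.2%, 59.9% and 58.7% in LPS libraries. Mxi1 took 16.4%, 15.8% and 15.9% in control and 28.0%, 25.95% and 27.0% in LPS libraries, and Mxd3 stayed under 3% in every library. The leading MXD transcript was thus Mxd4 in control and Mxd1 in LPS cells. The summed level of all 9 genes was 65.6, 63.2 and 64.5 normalized CPM per kb in control and 120, 122 and 121 in LPS libraries.

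**Figure D3:**
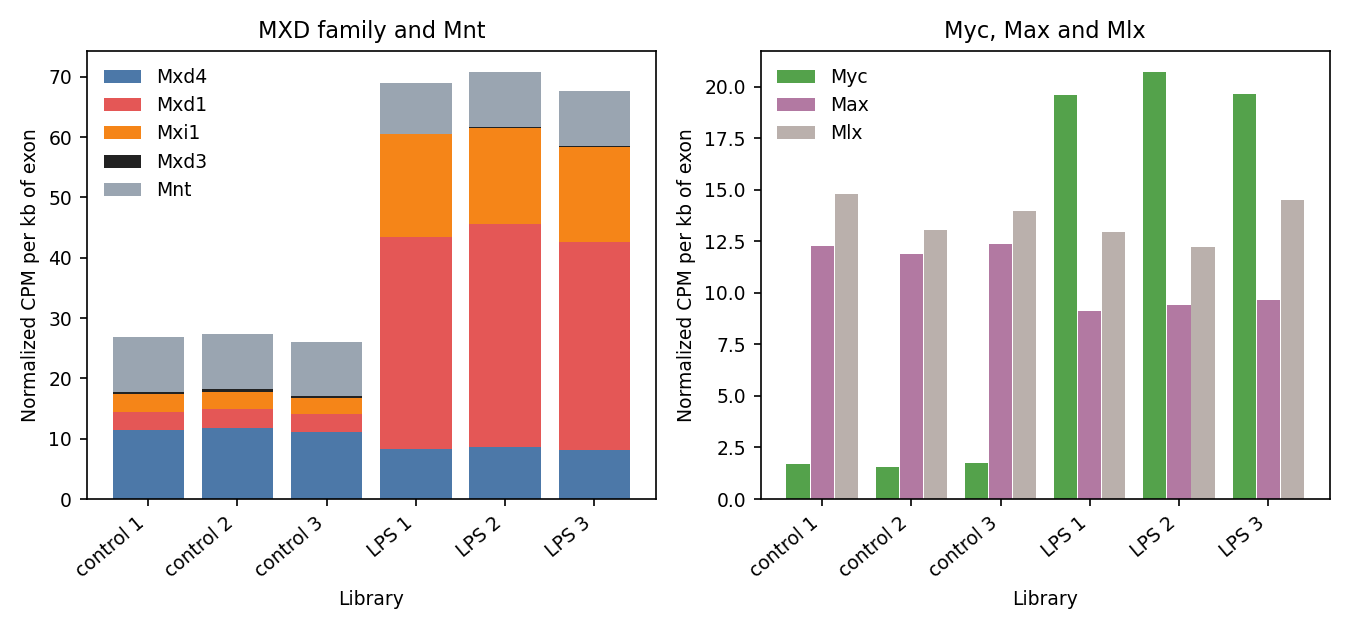
Normalized CPM per kb of exon in each library, as stacked bars for the MXD genes and Mnt (left) and as separate bars for Myc, Max and Mlx (right), all from 0. Mxd4 is the largest MXD share in the 3 control libraries (64.6% to 64.9%) and Mxd1 in the 3 LPS libraries (58.2% to 59.9%), and Myc passes Max in the LPS libraries.

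The tested genes with the pattern nearest to Myc over the 6 libraries were found by the Euclidean distance of log2 CPM (prior count 2) after subtraction of the control mean. Since the libraries fall into control and LPS groups, this distance mainly orders genes by the size of their change. The nearest were Plaur, the urokinase receptor (distance 0.103, log2 fold change 3.54), Dennd4a, a DENN domain gene (0.104, 3.57), and Sdc4, the heparan sulfate proteoglycan syndecan 4 (0.148, 3.55). Mxd1 was the 6th nearest gene to Myc, at a distance of 0.175. Nearest to Mxd1 were Pim1, a serine/threonine kinase (distance 0.111, log2 fold change 3.58), Tgfb3, a TGF-beta ligand (0.111, 3.68), and Zc3h12a, the ribonuclease regnase-1 (0.114, 3.59).

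Of the relatives of the members, Mycl, a MYC paralog, had 14, 21 and 14 counts with PBS and 46, 38 and 44 with LPS and rose, with a log2 fold change of 1.85 (SE 0.25, edgeR adjusted p = 3.65e-06). Mycn had 0, 3 and 3 counts with PBS and 4, 5 and 2 with LPS, at or near the floor of 3 counts, and was not tested. Mlxip, which encodes the MLX partner MondoA, had a log2 fold change of -0.27 (SE 0.04, edgeR adjusted p = 4.03e-06), and Mlxipl, which encodes ChREBP, had at most 14 counts in any library and was not tested. Of 4 relatives, 2 were tested and 1 rose, where 10.5% of all tested genes rose.

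Of 9 other factors that bind E-boxes, all tested, 1 rose and 2 fell, against 10.5% and 10.4% of all tested genes. Tfec, of the MiT family, rose by 2.85 (SE 0.05), and Usf1 and Tfap4 had log2 fold changes of -1.27 (SE 0.05) and -2.28 (SE 0.18), with edgeR adjusted p values of 6.46e-19, 7.13e-14 and 4.13e-09. The median of the list was 0.09. The list thus held changes in both directions.

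The corepressor subunits that MXD proteins and MNT recruit held no call past both criteria. Of 17 SIN3 and NCOR subunits, 0 rose and 0 fell, against 10.5% and 10.4% of all tested genes. At an edgeR adjusted p under 0.05 alone, 9 were higher and 4 lower, against 32.9% and 34.9% of all tested genes. All lay between -0.40 and 0.77, with a median of 0.08. Sin3a and Sin3b, the scaffold genes, each had a log2 fold change of 0.28 (SE 0.04), with edgeR adjusted p values of 2.66e-06 and 9.57e-06, and both were -0.12 with library size alone, so their direction rests on the scaling. The split of the list did too, with 1 higher and 13 lower under that scaling and 5 higher and 5 lower with upper quartile scaling. Of all 15687 tested genes, 12691 and 10973 passed the p threshold under these 2 scalings, and the median shifted by -0.40 and -0.14. Sap30 was the lowest at -0.40 (SE 0.06, edgeR adjusted p = 8.20e-06). Brms1, the highest at 0.77 (SE 0.29, edgeR adjusted p = 0.0260), rested on 14, 14 and 14 counts with PBS and 18, 17 and 17 with LPS, and its p missed the threshold when any single library was left out, with adjusted p values from 0.0510 to 0.0683.

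Of 9 PRC1.6 partners of MGA, 2 rose and 1 fell, against 10.5% and 10.4% of all tested genes. Rnf2, an E3 ligase subunit, and Rybp, a subunit that binds it, had log2 fold changes of 1.05 (SE 0.04) and 1.03 (SE 0.06), and Pcgf6, the subunit that defines this complex, had -1.14 (SE 0.12), with edgeR adjusted p values of 4.12e-13, 1.82e-11 and 1.37e-07. Both rises ended under other scalings, with Rnf2 at 0.65 and Rybp at 0.63 with library size alone and at 0.91 and 0.89 with upper quartile scaling. With library size alone 0 of the 9 partners rose and 3 fell, where 1213 and 2964 of all 15687 tested genes did. The median of the list was -0.0032.

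Of 10 MYC coactivators and partners, 1 rose and 0 fell, with a median of 0.11, against 10.5% and 10.4% of all tested genes. The one was Paf1, an elongation factor subunit, at 1.34 (SE 0.04, edgeR adjusted p = 5.35e-15), a rise that ended with library size alone (0.93), and the lowest was Wdr5, which binds MYC on chromatin, at -0.36 (SE 0.05, edgeR adjusted p = 5.39e-06). Of 11 genes of MYC protein turnover, 1 rose and 1 fell, against the same shares of all tested genes, with a median of 0.05. Usp36, a nucleolar deubiquitinase, was at 1.48 (SE 0.05, edgeR adjusted p = 8.36e-15) and Skp2, a ubiquitin ligase subunit, at -1.94 (SE 0.09, edgeR adjusted p = 2.56e-12). Fbxw7, the ligase subunit that marks MYC for degradation, was at 0.35 (SE 0.04, edgeR adjusted p = 9.21e-07) and at -0.06 with library size alone.

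Among 26 genes known to be activated by MYC, 4 rose and 1 fell, or 15.4% and 3.85%, against 10.5% and 10.4% of all tested genes. At an edgeR adjusted p under 0.05 alone 12 were higher and 5 lower, against 32.9% and 34.9% of all tested genes. These counts became 5 and 16 with library size alone, where 12691 of the 15687 tested genes passed that threshold and the median of all genes shifted by -0.40. The median of the 26 genes was 0.10 against -0.01. Odc1, the first enzyme of polyamine synthesis, had 877, 798 and 744 counts with PBS and 28658, 29188 and 28774 with LPS, a log2 fold change of 5.63 (SE 0.05, edgeR adjusted p = 3.43e-23). The other rises were much smaller, at 1.55 (SE 0.07) for the cyclin gene Ccnd2, 1.53 (SE 0.04) for the cap-binding gene Eif4e and 1.23 (SE 0.09) for the ribosome assembly gene Rrs1, with edgeR adjusted p values of 2.03e-12, 3.32e-17 and 5.70e-10. Rrs1 was at 0.82 with library size alone, short of the fold threshold. The phosphatase gene Cdc25a fell, with a log2 fold change of -1.175 (SE 0.08, edgeR adjusted p = 2.90e-10). Ncl, which encodes nucleolin, was at 0.45 (SE 0.05, edgeR adjusted p = 1.23e-07) and at 0.05 with library size alone, where its p missed the threshold (0.370).

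Of 6 genes known to be repressed by MYC, 3 rose and 0 fell, with a median of 0.97, against 10.5% and 10.4% of all tested genes. Cdkn1a, the cyclin-dependent kinase inhibitor p21, went from 894, 1030 and 1065 counts to 11550, 11169 and 11475, a log2 fold change of 3.99 (SE 0.06, edgeR adjusted p = 2.05e-20). Ndrg1 was at 1.86 (SE 0.03) and the stress gene Gadd45a at 1.37 (SE 0.05), with edgeR adjusted p values of 1.11e-18 and 9.44e-14, and with library size alone Gadd45a was at 0.97, short of the fold threshold. Cdkn1b, the inhibitor p27, was at -0.21 (SE 0.04, edgeR adjusted p = 3.90e-04). In these libraries genes listed as activated and genes listed as repressed by MYC were both found among the rises.

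The targets of Mondo-MLX pairs gave the largest fall among the lists of network genes. Txnip, the thioredoxin-interacting protein that limits glucose uptake, had 53320, 49349 and 50147 counts with PBS and 1122, 1094 and 1104 with LPS, a log2 fold change of -5.05 (SE 0.04, edgeR adjusted p = 7.26e-24). Arrdc4, its relative that is a target of the same pairs, did not follow it and was at 0.30 (SE 0.05, edgeR adjusted p = 3.11e-05), or -0.11 with library size alone. Of 6 such targets, 5 were tested, 0 rose and 1 fell, against 10.5% and 10.4% of all tested genes. The median of the tested targets was 0.04, and Pklr had 0 counts in each library.

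Of 6 proliferation genes, 1 rose and 0 fell, at a median of -0.20, against 10.5% and 10.4% of all tested genes. Mki67, the gene of the Ki-67 antigen, was at 3.04 (SE 0.04, edgeR adjusted p = 1.97e-21), with 4138, 3710 and 4003 counts with PBS and 23201, 22977 and 24188 with LPS. The mitotic cyclin gene Ccnb1 was the lowest at -0.40 (SE 0.08, edgeR adjusted p = 2.73e-04). Mki67 therefore stood apart from the other 5 genes of its list, which lay between -0.40 and 0.13.

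**Figure D4:**
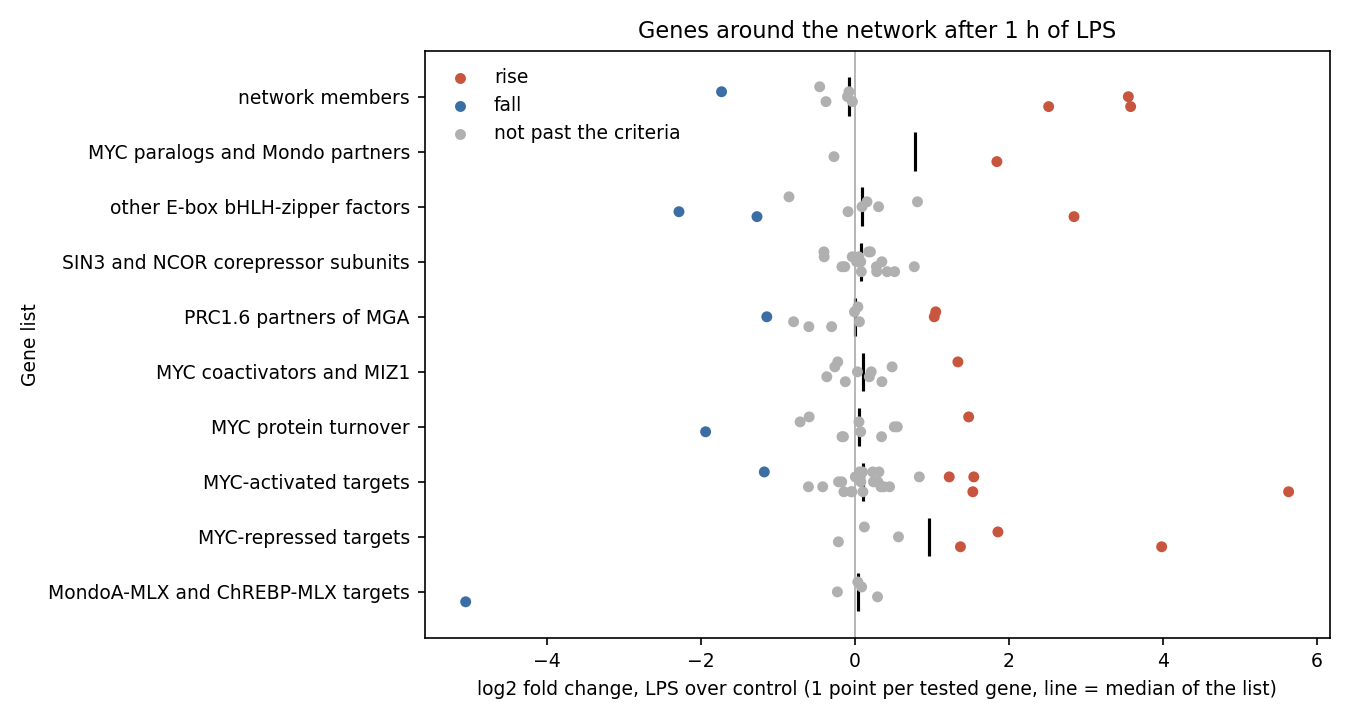
Log2 fold change of LPS over control for each tested gene of the network and of 9 lists around it, with 1 point per gene, coloured by call, and a line at the median of each list. The points of most lists gather near 0 with a few far from it, such as Odc1 at 5.63 and Txnip at -5.05.

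Library totals ranged from 37787611 to 41516330 counts. All 8 macrophage markers were well above the floor, with summed levels of 29945 to 31229 normalized CPM in control and 35886 to 36245 in LPS libraries. At an edgeR adjusted p under 0.05 alone, 6 of the 8 were higher and 1 lower, against 32.9% and 34.9% of all tested genes. Past both criteria 1 rose, Cd14, from a mean of 398 to 3623 normalized CPM, and 0 fell, against 10.5% and 10.4%. Csf1r went from 3263 to 4163 and Lyz2 from 23272 to 24224, while Fcgr1 went from 396 to 284 and Mertk from 109 to 106. The higher sum with LPS thus holds higher levels of most of these markers. All 4 genes of the LPS response, Tnf, Il6, Il1b and Nfkbia, rose, against 10.5% of all tested genes. Summed levels were 2.17 to 2.86 and 7.11 to 7.90 for 4 dendritic cell markers, 33.6 to 35.8 and 44.3 to 46.2 for 6 neutrophil markers, and 13.5 to 14.6 and 15.2 to 17.6 for 5 fibroblast markers. Of the 4 dendritic cell markers 3 rose, Flt3, Zbtb46 and Xcr1, against 10.5% of all tested genes. They rested on few counts, such as 2, 1 and 2 with PBS and 27, 17 and 15 with LPS for Xcr1. Most of the neutrophil sum came from S100a8 and S100a9, at 11.3 and 19.4 in control, while Ly6g had 0 to 3 counts. They were 0.462 to 0.708 and 0.536 to 0.676 for 5 T cell markers and 2.88 to 3.17 and 2.88 to 3.64 for 5 B cell markers. The part of these markers in the results was not tested. In bulk RNA, fewer cells of a type and less RNA per cell cannot be told apart.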

How the data were processed

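Total RNA of BMDMs was sequenced from 3 PBS and 3 LPS libraries. The authors aligned paired-end reads to GRCm38 with HISAT2 2.1.0, used SAMtools 1.17 and FastQC 0.11.9, and counted reads per gene with featureCounts 2.0.0. The deposited values are raw counts. The library kit keeps strand, but the strand setting, annotation release and handling of reads that map to several places are not given in the sources used here, so genes that overlap another gene are uncertain. Of the 55335 identifiers, 55154 matched a GENCODE M21 symbol without the version.

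Counts were compared in R 4.3.3 with edgeR 4.0.16, with filterByExpr as filter, TMM scaling, the quasi-likelihood test, and p-values adjusted by Benjamini-Hochberg across the 15687 tested genes. SEs were derived from the F statistic. Samples were grouped by their labels. Replicate numbers in the sample titles were used to pair the libraries in the replicate block. That same-numbered libraries belong together is an assumption. The correlations of same-numbered libraries' deviations were -0.014, 0.082 and 0.039. Their mean was 0.036, against -0.018 for libraries of different number. The main model has no block, as for the study's pairwise comparisons. Alternatives were other scalings and filters, DESeq2 1.42.0, limma voom (limma 3.58.1), the replicate block, exclusion of the 10 genes with the highest counts, and exclusion of each library.

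The members and lists were chosen with earlier results of these data known. Named genes were all members and their overlapping genes and Pvt1, the lowest, the highest, up to 3 further called and the defining genes of each list, and the 3 genes nearest in pattern to Myc and to Mxd1. Cell type marker and LPS response lists are given as sums and counts. The result of 1 further marker list is not reported here. Floors of 3 counts cover counting error only. In simulated counts of this comparison for 15687 genes, of which 15210 passed the filter, edgeR recovered 200 of 200 genes that had been changed by 2 on the log2 scale. It also called 1 unchanged gene. The changed genes were drawn from those with higher counts, and the simulated spread was set alike for every gene. This recovery therefore does not cover scarce genes such as Mxd3.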

Additional observations from a re-analysis of the deposited data

How the results depend on the processing

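The count of members that rose was 3 under all alternatives run, and the count past the adjusted p threshold ranged from 6 to 9. The count that fell went from 1 to 0 with at least 10 counts in every library, because that filter removes Mxd3. Over all alternatives Myc ranged from 3.18 to 3.62, Mxd1 from 3.15 to 3.57, Mxi1 from 2.11 to 2.54, Mxd3 from -2.13 to -1.54, Max from -0.78 to -0.35 and Mxd4 from -0.86 to -0.44 on the log2 scale, each on its side of the thresholds. With the replicate block the log2 fold change of Myc was 3.58, and the block changed no call of a member or another named gene. Of 134 alternative values of members, 122 kept direction and side of the p threshold, 6 lost the p threshold (all Mga) and 5 gained it. Those were Mnt (-0.44 and -0.17) and Mlx (-0.48 and -0.22) with library size alone and upper quartile scaling, and Mlx without LPS replicate 3. Mnt ranged from -0.055 to 0.0084 when single libraries were left out, positive only without LPS replicate 1. With library size alone, Sin3a and Sin3b turned to -0.12, Fbxw7 to -0.057, Arrdc4 to -0.11, Pvt1 to -0.29 and Prelid1 to -0.39. The gene lists were recounted under each alternative after their values had been seen. With library size alone, the falls among all tested genes went from 1624 to 2964. Falls in the lists went from 2 to 3 among other E-box factors and from 1 to 3 among PRC1.6 partners. Among turnover genes and among activated targets they went from 1 to 2. Under the same scaling, Rnf2, Rybp, Paf1, Rrs1 and Gadd45a no longer passed the fold threshold. With upper quartile scaling, Rnf2 and Rybp no longer passed it, and Pvt1 turned to -0.025 and Prelid1 to -0.13. Prelid1, near 0 throughout, was also -0.0096 with at least 1 count in any library, -0.0019 with at least 10 counts in every library, and from -0.010 to 0.062 when single libraries were left out. The cause of these turns was not tested beyond the shift of all genes by scaling. Mxd3 is the member that depth limits most, since its LPS libraries held 8 to 10 counts.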
